A study of Homo sapiens with 18 samples.

Results

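The clustered protocadherin genes were taken as the protein-coding records of chromosome 5 whose symbol begins with PCDHA, PCDHB or PCDHG, which gave 53 genes of 19974 on chromosomes 1 to 22 and X. The alpha cluster held 15 of them over 226 kb, the beta cluster 16 over 198 kb and the gamma cluster 22 over 182 kb. From the start of PCDHA1 to the end of PCDHGC5 they spanned 727 kb (GRCh38.p14, chr5:140786140-141512975), with gaps of 39 kb between alpha and beta and 81.1 kb between beta and gamma. The cells were MDA-MB-231, an established human line of triple-negative breast cancer, and the assay was ChIP-seq, which sequences the DNA pulled down with an antibody. KDM2B, MYC, H3K4me3, H2AK119ub and H3K27me3 were profiled in parental cells, and H3K27ac in cells carrying an empty vector, so H3K27ac differs from the other targets in its cell stock as well as its antibody. The labels listed 18 libraries in 9 groups of 2, inputs included, and each of the 6 targets had 1 deposited peak list, so no value here has a replicate error.

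Clustered protocadherins are cell-surface cadherins best known from neurons, where each cell transcribes its own small set of them and uses the combination to tell itself from other cells. In the alpha and gamma clusters every member has its own promoter and its own large first exon, which encodes the extracellular part and is spliced to constant exons that the whole cluster shares. Beta members are single-exon genes. Most member promoters carry a conserved sequence element around a CGCT core, and the choice among them is known to involve CTCF, cohesin and DNA methylation, whereas the C-type members PCDHAC1, PCDHAC2, PCDHGC3, PCDHGC4 and PCDHGC5 are regulated differently and PCDHGC3 is broadly expressed. H3K4me3 marks active or poised promoters, and H3K27ac active promoters and enhancers. H2AK119ub and H3K27me3 are the marks of the Polycomb complexes PRC1 and PRC2. KDM2B binds unmethylated CpG DNA and carries a variant PRC1 to it, and MYC is an E-box transcription factor.

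The RefSeq promoter table of GRCh38.p14 held 47 of the 53 members, all on the + strand. PCDHA3, PCDHA13, PCDHB6, PCDHB11, PCDHGA12 and PCDHGC5 had no entry. The windows below show a CGCT match found before the start, for members with and without peaks at their starts. Such a match alone does not show that the conserved element is present. Capitals mark CGCT, and each window runs 5′ to 3′ from 16 bases before the core to 16 after it. In the alpha cluster, PCDHA1 had no peak of any list at its start, PCDHA5 had MYC, PCDHA8 had H3K4me3, and PCDHAC1 and PCDHAC2 had H3K4me3 with both Polycomb marks.
PCDHA1 (chr5:140786086-140786121): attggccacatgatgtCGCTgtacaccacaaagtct
PCDHA5 (chr5:140821542-140821577): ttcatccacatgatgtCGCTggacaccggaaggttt
PCDHA8 (chr5:140841130-140841165): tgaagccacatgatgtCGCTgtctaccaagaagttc
PCDHAC1 (chr5:140926220-140926255): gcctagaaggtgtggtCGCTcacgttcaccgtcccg
PCDHAC2 (chr5:140966365-140966400): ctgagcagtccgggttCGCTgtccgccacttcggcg

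In the beta cluster, PCDHB10 had no peak at its start, PCDHB12 had H3K4me3 and MYC, and PCDHB14 had H3K4me3.
PCDHB10 (chr5:141192299-141192334): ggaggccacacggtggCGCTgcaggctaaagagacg
PCDHB12 (chr5:141208643-141208678): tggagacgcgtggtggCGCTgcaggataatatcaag
PCDHB14 (chr5:141223263-141223298): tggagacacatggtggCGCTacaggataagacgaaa

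In the gamma cluster, PCDHGA8 had no peak at its start, PCDHGA9 had weak and PCDHGB1 strong H3K4me3, the C-type member PCDHGC3 had H3K4me3, and the C-type member PCDHGC4 had H2AK119ub.
PCDHGA8 (chr5:141392568-141392603): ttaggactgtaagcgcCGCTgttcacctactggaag
PCDHGA9 (chr5:141402714-141402749): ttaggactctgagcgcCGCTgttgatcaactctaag
PCDHGB1 (chr5:141350025-141350060): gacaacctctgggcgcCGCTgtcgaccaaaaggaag
PCDHGC3 (chr5:141475880-141475915): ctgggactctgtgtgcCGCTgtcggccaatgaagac
PCDHGC4 (chr5:141484952-141484987): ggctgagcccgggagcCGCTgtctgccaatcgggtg

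Searched on the sense strand between positions −100 and −10 from the start, CGCT was present in 44 of 47 member promoters (93.6%), against 33% of 15812 promoters of all genes in the table. This search range was chosen after the positions were seen. On the opposite strand (AGCG in the same range) the shares were 25.5% of members and 34.4% of all genes. The core sat at a median position of −59 among members, with a range of −95 to −11, and 40 of the 44 lay between −81 and −38. PCDHA9, PCDHB8 and PCDHGB2 had no CGCT in that range. For PCDHGB2 the promoter-table start (141360136) lies inside the record start used for peaks (141359994), so its range was placed differently. A match of CGCT does not show a bound site, nor by itself the conserved element. The letters next to the core differed by cluster. Longer words were searched between −100 and −10 with a few bases added on either side, not over the whole promoter. GATGTCGCT was found there in 9 of 13 alpha members and 10 of all 15812 genes (0.0632%). GGTGGCGCT was found in 12 of 14 beta members and 34 of all genes (0.215%). The gamma word GCGCCGCT occurred in 10 of 20 gamma members and 153 of all genes (0.968%). None of these words, read on the sense strand and picked from the member sequences, occurred in that stretch of the promoters of the other clusters. The windows printed for the C-type members PCDHAC1, PCDHAC2, PCDHGC3 and PCDHGC4 held CGCT but none of these words. The core was present between −100 and −10 in 15 of 16 members with H3K4me3 at the start (93.8%) and in 29 of 31 without (93.5%).

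The records set how peaks could be counted. All 15 alpha records ended at 141012347 and all 22 gamma records at 141512975, the ends of the shared constant exons, while each beta record had its own end. The 53 genes therefore had 71 distinct end positions, and a single peak at a shared end counted for a whole cluster. The lower-coordinate end is the end that belongs to 1 member alone. It was taken as the start, since the 47 members in the promoter table are on the + strand and the gene table gives no strand for the other 6, and it carries the results below. A target was counted at a member if a peak and the window of 1 kb either side of that position shared 1 bp or more. The fold given for a peak is the authors' own ratio of signal over background at its summit, and folds of different targets are on different scales and were not compared.

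H3K4me3 marked a subset of members, scattered through all 3 clusters, at levels far below those of most marked genes, and H3K27ac marked none. At their starts 19 of 53 members (35.8%, 95% Wilson interval 24.3 to 49.3) had an H3K4me3 peak, against 45.0% of all protein-coding genes at their lower-coordinate end. The 19 were 4 of 15 in alpha, 7 of 16 in beta and 8 of 22 in gamma. H3K27ac was found at the start of 0 of 53 members (interval 0 to 6.76%), against 40.2% of all genes. With either end counted, H3K4me3 was present for 20 of 53 members (37.7%) against 69.4% of all genes, and H3K27ac for 0 of 53 against 63.7%. The member added by the upper end was PCDHB16, whose end reached the H3K4me3 peak at the start of PCDHB9. At the starts of the promoter table, 16 of 47 members (34.0%) had H3K4me3 against 69.1% of all genes, and 0 of 47 had H3K27ac against 63.7%. Where a member lacks a peak, the list says only that none passed the authors' caller at an unknown depth.

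**Figure D1:**
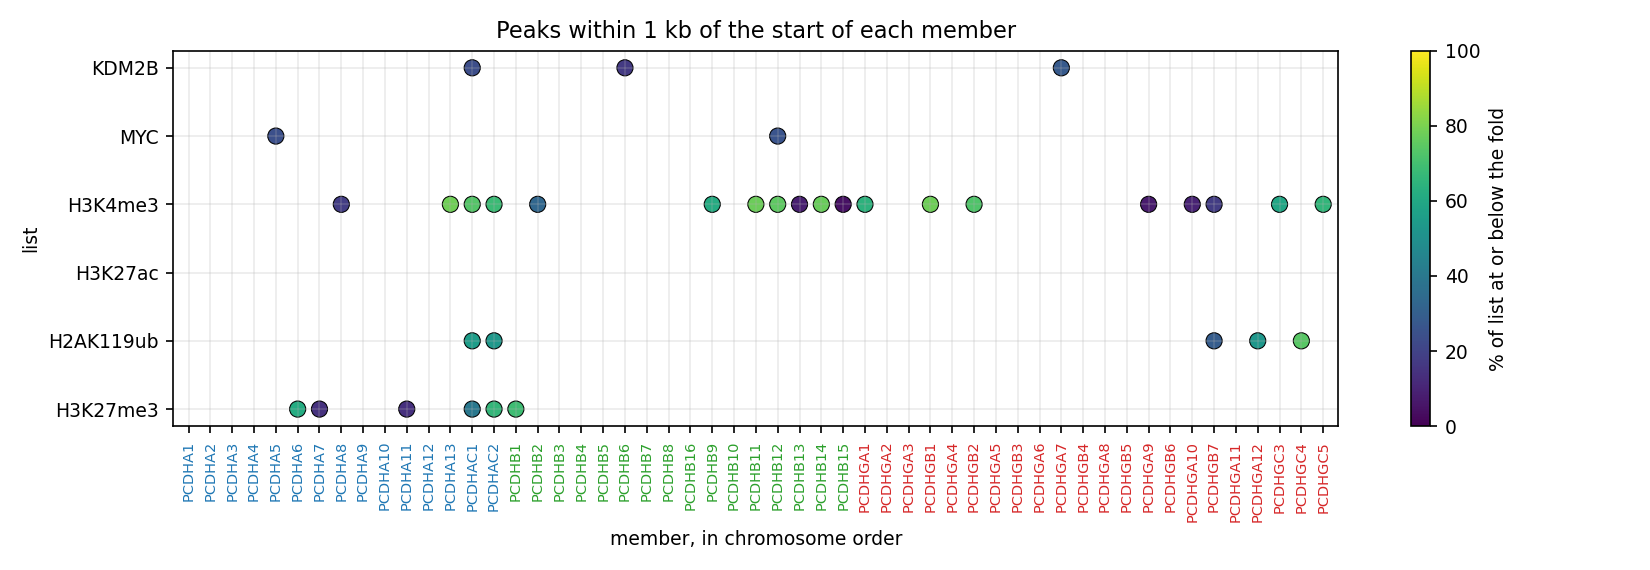
Peaks within 1 kb of the start of each of the 53 members, in chromosome order along the x axis and by list on the y axis; member names are coloured by cluster, and the colour of a point gives the percent of that list's peaks with the same or a lower fold. H3K4me3 points run through all clusters, the H3K27ac row is empty, and KDM2B and MYC have 3 and 2 points.

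The strongest H3K4me3 peaks at member starts were spread over the clusters. In alpha the folds were 12.3 at PCDHA13 (peak chr5:140882098-140882806), 8.17 at PCDHAC1, 6.15 at PCDHAC2 and 2.32 at PCDHA8. In beta they were 11.7 at PCDHB11 (chr5:141199602-141201875), 11.1 at PCDHB14 (chr5:141223079-141225817), 9.26 at PCDHB12, 4.63 at PCDHB9, 2.71 at PCDHB2 and 2.09 at PCDHB13, with PCDHB15 lowest at 1.96. In gamma they were 12.1 at PCDHGB1 (chr5:141350078-141352937), 7.86 at PCDHGB2, 5.5 at PCDHGC5, 5.19 at PCDHGA1, 4.29 at PCDHGC3 and 2.33 at PCDHGB7. PCDHGA10 with 2.12 and PCDHGA9 with 2.05 completed the gamma members and, like PCDHB15, fall outside the naming rule. Each cluster thus held at least 1 member above fold 11 beside members close to fold 2. The median was 5.19, and 12 of the 19 had a fold of at least 4.

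At most members these peaks sat just inside the gene. The summit of the H3K4me3 peak lay above the start, on the side of the first exon, in 18 of 19 members, at a median of 156 bp, and within 300 bp in 16. PCDHAC2 was the exception, with its summit at −116 bp. Peak width ran from 196 bp at PCDHB13 to 2860 bp at PCDHGB1, with a median of 863 bp, and 7 peaks were at least 1000 bp wide. PCDHB11, PCDHB12 and PCDHB14 had peaks of 2274, 2420 and 2739 bp in records of 4.15, 3.85 and 4.42 kb, so their H3K4me3 covered much of a single-exon gene. Peaks with q under 1e-5 numbered 13 of 19.

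Set beside other marked genes, the members were at the low end. Among genes of the promoter table with H3K4me3 at the start, the 16 members had a median fold of 4.46 and a median width of 850 bp, against 43.2 and 6074 bp for all 10933 genes. Of those 10933, 92.9% had a higher fold than the highest member. H3K27ac accompanied H3K4me3 at 0 of the 16 members and 90.8% of the 10933 genes, MYC at 1 (6.25%) and 92.5%, and KDM2B at 1 (6.25%) and 69%. To set them beside genes with equally weak H3K4me3, the 723 other genes whose fold lay within the members' range were counted. These had a median fold of 4.63, and H3K27ac was present at 0 of 16 members against 29.9% of them, MYC at 1 of 16 against 34.7%, and KDM2B at 1 of 16 against 6.92%. H2AK119ub was present at 3 of the 16 members (18.8%) against 67.2% of the 723, and H3K27me3 at 2 (12.5%) against 40.2%. At most of the marked members, then, H3K4me3 stood without a peak of any other list within 1 kb of the start. No test was made of these differences, since members are neighbours with similar sequence and 1 list per target gives no error.

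**Figure D2:**
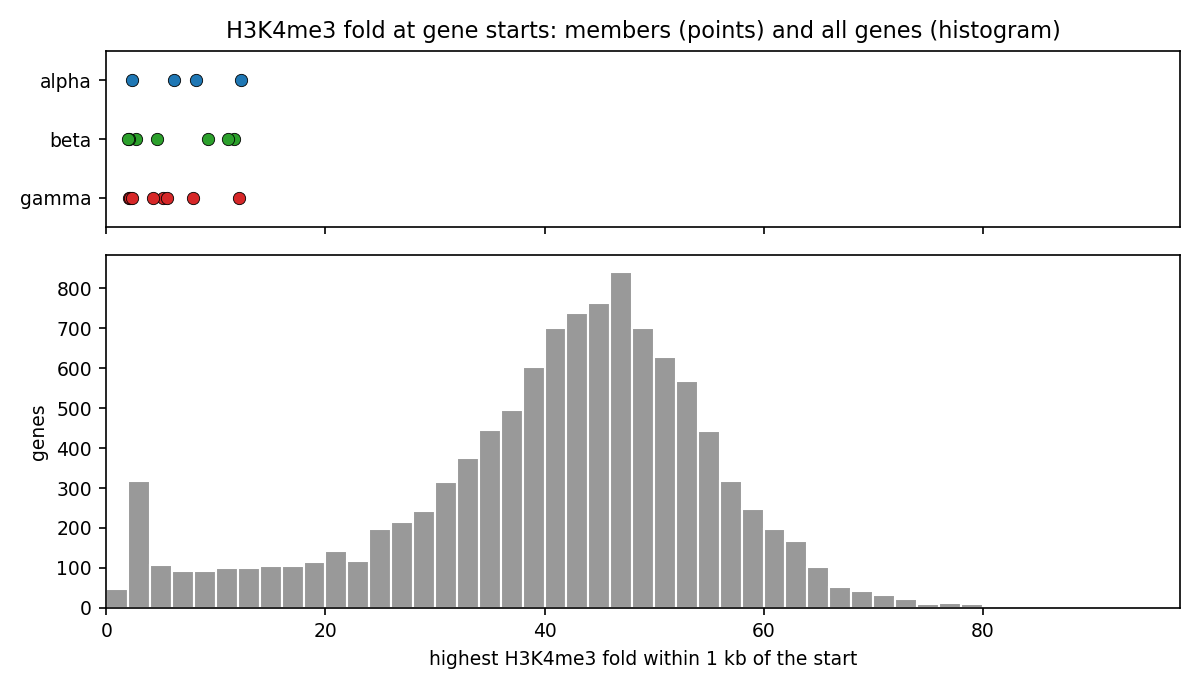
Highest H3K4me3 fold within 1 kb of the start, on the x axis, for the 19 marked members (points, 1 row per cluster) and, as a histogram with the number of genes on the y axis, for all genes of the promoter table with H3K4me3. Members lie between 1.96 and 12.3, below the main body of genes around the median of 43.2.

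KDM2B and MYC were rare at member starts and weak where found. KDM2B had a peak at 3 of 53 members (5.66%, interval 1.94 to 15.4) against 25.1% of all genes, and the count by either end was also 3 of 53, against 46.7% of genes. In the promoter table it was 2 of 47 members against 47.8% of genes. At PCDHAC1 the KDM2B fold was 2.65 with its summit 203 bp above the start, beside the H3K4me3 summit at 210 bp. At PCDHGA7 it was 2.76 and at PCDHB6 2.47, with summits 963 and 1009 bp above the start and no peak of another list there. All 3 were among the weaker peaks of the list: 23.8%, 27.9% and 16.9% of KDM2B peaks had the same or a lower fold. MYC had a peak at 2 of 53 members (3.77%, interval 1.04 to 12.8) by their starts, against 37.8% of all genes, and at the same 2 by either end, against 64.2%. The promoter table gave 2 of 47 against 64.5%. They were PCDHB12 with a fold of 2.61, its summit 142 bp above the start beside the H3K4me3 summit at 126 bp, and PCDHA5 with 2.57 and no other peak. Of the MYC list, 25.8% and 24.5% of peaks had the same or a lower fold.

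Of the 2 Polycomb marks, H3K27me3 had 52 of its 64 cluster peaks in alpha, while H2AK119ub had 11 of 37 in alpha, 4 in beta and 22 in gamma. At starts, H3K27me3 was present for 6 of 53 members (11.3%, interval 5.29 to 22.6) against 21.3% of all genes, and H2AK119ub for 5 of 53 (9.43%, interval 4.10 to 20.3) against 33.7%. The H3K27me3 members were PCDHAC2 with a fold of 2.99, PCDHA6 with 2.89, PCDHAC1 with 2.53, PCDHA7 and PCDHA11 with 2.11 each, and PCDHB1 with 3.09. Those of H2AK119ub were PCDHGC4 with 2.79, PCDHAC1 with 2.52, PCDHAC2 and PCDHGA12 with 2.49 each, and PCDHGB7 with 2.22. Both marks were found together at PCDHAC1 and PCDHAC2 and at no other start. In the promoter table, 6 of 47 members (12.8%) had H3K27me3 against 19.9% of genes, and 4 of 47 (8.51%) had H2AK119ub against 32.3%. By either end the counts were 16 of 53 for H3K27me3 against 26.9% of genes, and 24 of 53 for H2AK119ub against 45.1%. Those larger counts came from the shared ends: 2 H3K27me3 peaks at the common alpha end counted for all 15 alpha members, and 2 H2AK119ub peaks at the common gamma end for all 22 gamma members. By distinct positions, H3K27me3 was present at 7 of 71 ends and H2AK119ub at 6 of 71.

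In 10 kb bins across the clusters, H3K27me3 was most frequent in alpha, and H2AK119ub was about as frequent in alpha as in gamma. H3K27me3 was present in 18 of 24 alpha bins (75%), 3 of 20 beta bins (15%) and 5 of 19 gamma bins (26.3%), against 27.2% of all bins of chromosomes 1 to 22 and X. H2AK119ub was present in 9 alpha bins (37.5%), 4 beta bins (20%) and 8 gamma bins (42.1%), against 24.8%. With bins shifted by 5 kb its order turned, with 47.8% in alpha and 36.8% in gamma. H3K4me3 had 6 alpha bins (25.0%), 8 beta bins (40.0%) and 10 gamma bins (52.6%), against 15.6%. Beta had the fewest bins of either Polycomb mark. H3K27ac was found in no alpha or beta bin and 2 gamma bins (10.5%), against 16.4%. KDM2B had 1, 1 and 2 bins in alpha, beta and gamma (4.17%, 5.0% and 10.5%) against 5.10%, and MYC 2, 1 and 2 bins (8.33%, 5.0% and 10.5%) against 11.4%. Of the 63 bins, 15 held no peak of any list, 8 of them in beta.

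**Figure D3:**
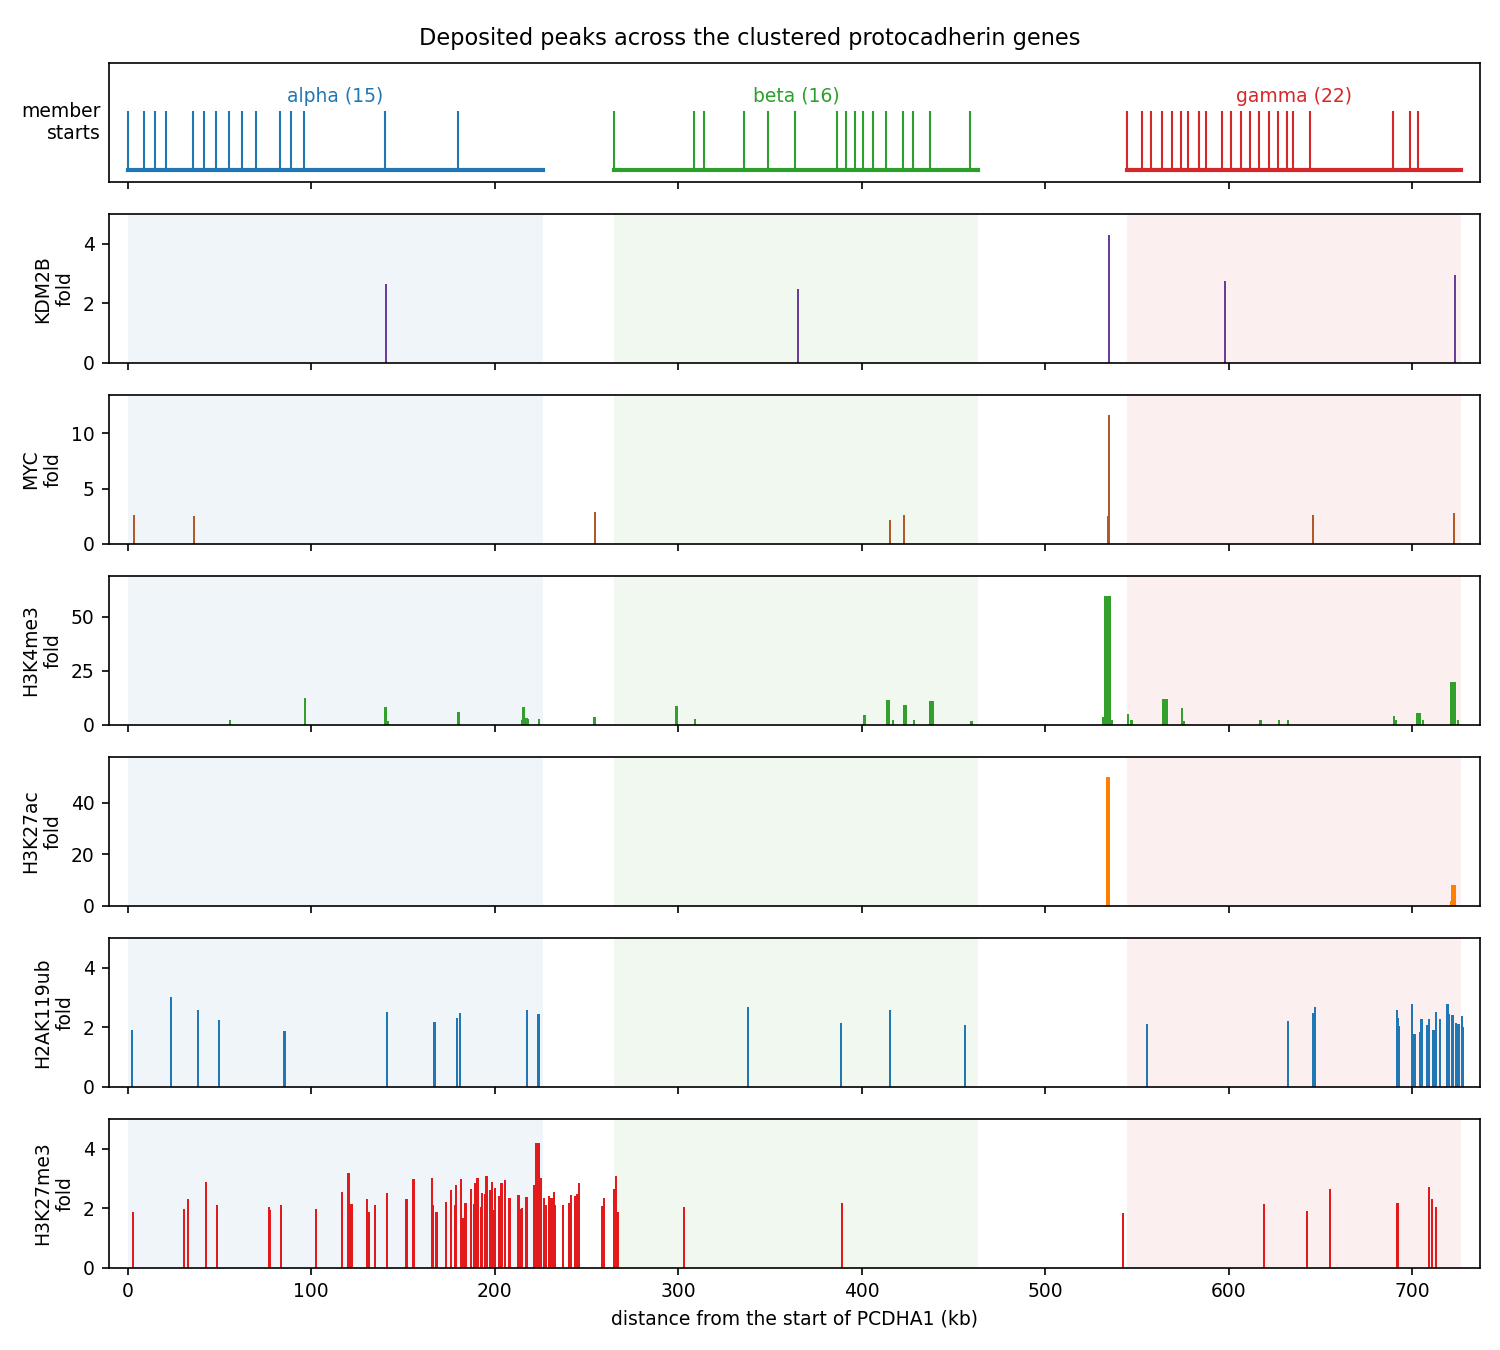
Position and fold of each deposited peak from PCDHA1 to the end of PCDHGC5 (x axis, kb from the start of PCDHA1; y axis, the authors' fold on a linear scale set for each list), with member starts in the top row and the 3 clusters shaded; narrow peaks are drawn with a minimum width. H3K27me3 peaks crowd the upper part of alpha and the gap beyond it, H2AK119ub peaks the upper end of gamma, and the tallest KDM2B, MYC, H3K4me3 and H3K27ac peaks lie between beta and gamma at TAF7.

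Within alpha, H3K27me3 was densest from about PCDHAC2 to the shared end. From PCDHAC1 to the shared end, 86 kb held 37 peaks covering 28.6% of bases, against 15 peaks covering 3.16% of the 140 kb from PCDHA1 to PCDHAC1. Around PCDHAC1 itself H3K27me3 was sparse. The 10 kb bin of its start had 1179 bp under peaks and the bins just above had 306 and 250 bp. From the bin of the PCDHAC2 start to that of the shared end, bins had 2587 to 6476 bp. Genome-wide, 11.8% of bases lay under H3K27me3 peaks. The lists are in narrow-peak form, in which a broad stretch of H3K27me3 or H2AK119ub can appear as many peaks, so peak counts and covered shares depend on that form: with peaks less than 3 kb apart merged, H3K27me3 covered 25.8% of alpha in place of 12.8%, and H2AK119ub 15.1% of gamma in place of 4.74%. Peaks less than 3 kb apart joined into a stretch of 35.5 kb made of 24 peaks (chr5:140959101-140994616), longer than 91.6% of joined H3K27me3 stretches. It spanned the start of PCDHAC2, which itself lay between 2 of the joined peaks and under neither. The strongest H3K27me3 peak of the 3 clusters had a fold of 4.18 (chr5:141008346-141010691), 2.69 kb below the shared alpha end, and 92.1% of the list had the same or a lower fold. The mark was also present past the cluster, with 17 peaks over 15.5% of the gap toward beta, but not as 1 continuous stretch. Joined stretches ended at 141018858, 141031717 and 141045679, with peak-free bases after each. A separate stretch (chr5:141050920-141052773) spanned the start of PCDHB1, which also lay between joined peaks. Beta had 4 peaks over 0.549% of its bases. H2AK119ub in alpha was sparse beside it, with 11 peaks over 2.09% of bases, of which 7 overlapped H3K27me3.

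Within gamma, H2AK119ub was densest in the C-type and constant part. From PCDHGC3 to the shared end, 37 kb held 18 H2AK119ub peaks over 17.8% of bases, against 4 peaks over 1.41% of the 145 kb from PCDHGA1 to PCDHGC3, and 5.55% of bases genome-wide. Joined stretches of 15.6 kb (chr5:141485541-141501167) and 14.2 kb (chr5:141504756-141518998) were longer than 92.1% and 91.2% of joined H2AK119ub stretches. The lower one spanned the start of PCDHGC5, which lay between joined peaks and not under one, and the upper one passed the end of the cluster. H3K27me3 covered 5.89% of the same 37 kb with 5 peaks, 4 of them overlapping H2AK119ub.

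**Figure D4:**
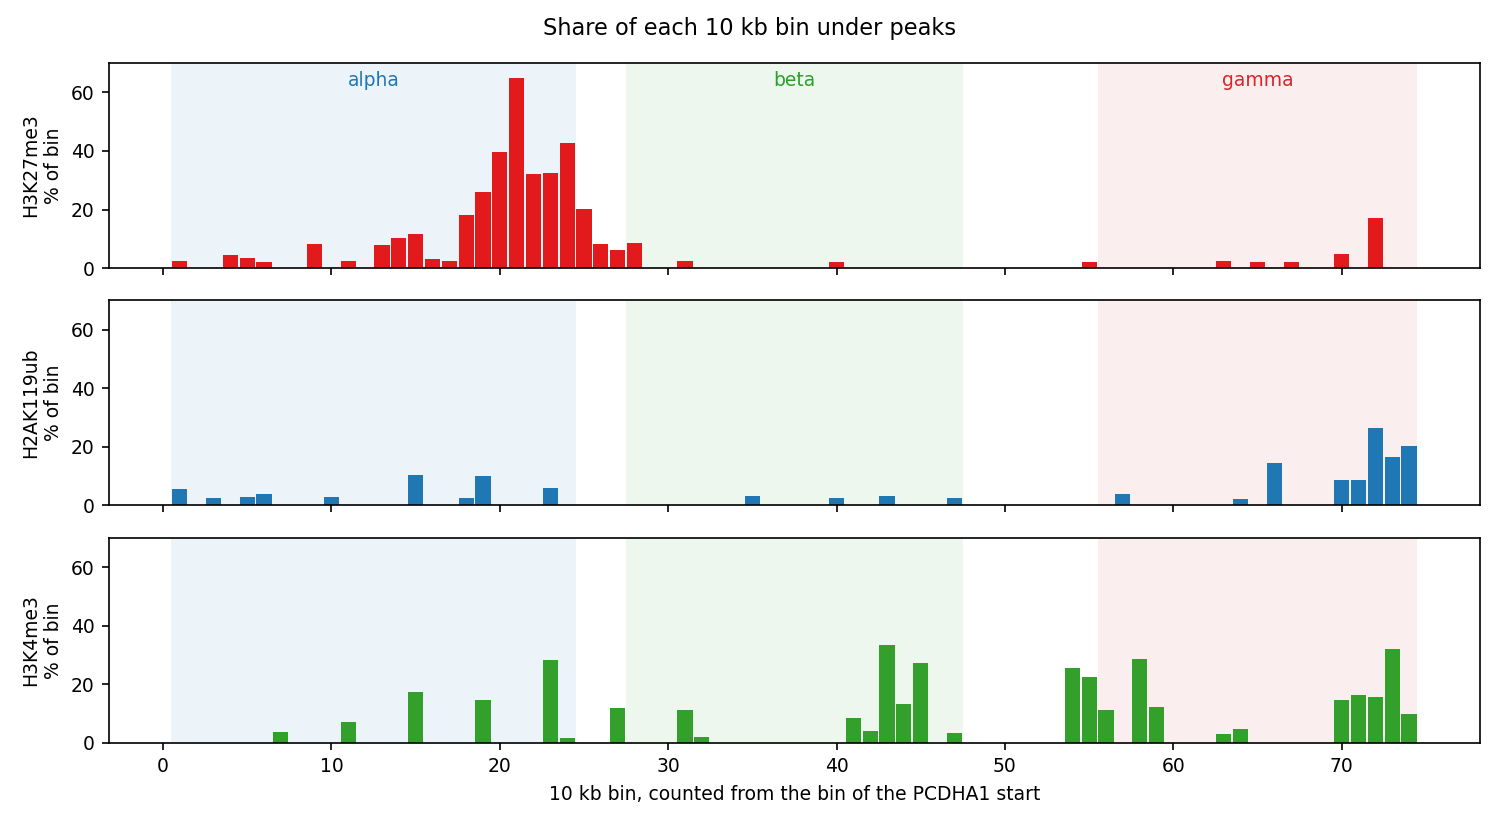
Percent of each 10 kb bin under peaks of H3K27me3, H2AK119ub and H3K4me3 (y axis) by bin number counted from the bin of the PCDHA1 start (x axis), with the 3 clusters shaded. H3K27me3 is highest at bin 21 in upper alpha, where it covers 6476 bp, and H2AK119ub in the last gamma bins.

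The 5 C-type members were not marked alike. PCDHAC1 carried KDM2B, H3K4me3, H2AK119ub and H3K27me3 at its start and was the only member with 4 lists, its Polycomb summits lying 1193 bp (H2AK119ub) and 862 bp (H3K27me3) above the start and its H3K4me3 summit 210 bp above it. PCDHAC2 had H3K4me3, H2AK119ub at 679 bp and H3K27me3 at 935 bp. PCDHGC3 and PCDHGC5 had H3K4me3 alone within 1 kb, with a first H2AK119ub summit 1326 bp above the start of PCDHGC3 and 1149 bp above that of PCDHGC5. PCDHGC4 had H2AK119ub 794 bp above its start and no H3K4me3. None of the 5 had H3K27ac or MYC at the start.

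Among the other 48 members no start had more than 2 lists. Of all 53, 25 (47.2%, interval 34.4 to 60.3) had none of the 6, against 28.9% of all genes at their lower-coordinate end. That end is not the start of a gene on the − strand, and the share by promoter-table starts was not counted. The unmarked ones were 7 in alpha, 7 in beta and 11 in gamma. Unmarked and marked members were interspersed along the chromosome: PCDHGB1 with fold 12.1 and PCDHGB2 with 7.86 stood either side of PCDHGA4, which had no peak. H3K4me3 alone was the most frequent combination, at 15 members, counted within 1 kb of the start. Further in, the H3K4me3 peak of PCDHB11 overlapped MYC and H2AK119ub peaks, and that of PCDHGC5 overlapped H2AK119ub. A weaker H3K4me3 peak of PCDHGC3 overlapped H2AK119ub and H3K27me3.

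Away from starts, 1 site inside the gamma constant part carried 4 targets together. An H3K4me3 peak of 3461 bp and fold 19.8 (chr5:141506783-141510243), the strongest within the 3 clusters, had its summit 3.96 kb below the shared gamma end. Over it lay an H3K27ac peak of fold 8.26 (chr5:141507419-141510166), a KDM2B peak of fold 2.95 (chr5:141508812-141509121) and a MYC peak of fold 2.78 (chr5:141508496-141508917). A small H3K27ac peak of fold 2.01 lay beside it, and these were the only H3K27ac peaks in the clusters. This site lies in every gamma record but within 1 kb of no member start or end, so it enters no member count above. It does enter the bin counts: it supplied both gamma bins with H3K27ac, and 1 of the 2 gamma bins for each of KDM2B and MYC. H2AK119ub peaks of fold 2.43 and 2.15 overlapped the same H3K4me3 peak.

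Other H3K4me3 sites lay away from annotated starts as well. Of the 33 H3K4me3 peaks in the clusters, 13 were more than 1 kb from every member start. Alpha had one of fold 8.37 (chr5:141001213-141002624) with its summit 10.3 kb below the shared end, and beta one of fold 8.78 (chr5:141084660-141085769) with its summit at −9845 bp from PCDHB2. In the alpha to beta gap, an H3K4me3 peak of fold 3.43 overlapped a MYC peak of fold 2.92. MYC had 4 of its 6 cluster peaks away from starts: at the gamma site, 3214 bp above PCDHA1 with fold 2.60, 1865 bp above PCDHB11 with fold 2.19, and 1523 bp above PCDHGA12 with fold 2.63. For the Polycomb marks this was the usual case, with 58 of 64 H3K27me3 peaks and 32 of 37 H2AK119ub peaks away from starts. These sites were picked out after their values were seen.

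Member promoters held few CpG dinucleotides. Over 300 bases, 250 before the start and 50 after it, the median was 7 CpG with a range of 2 to 27 among 47 members, against 22 among all 15812 genes. GC content had a median of 39.7% in members and 62.7% in all genes. The 4 C-type members in the table had 15 to 27 CpG, with a median of 20.5, and the other 43 members 2 to 16. Members with H3K4me3 at the start had a median of 8 CpG (16 members) and those without a median of 7 (31 members), and their ranges overlapped. The promoters with the most and the fewest CpG show the range, with CG in capitals (GRCh38.p14, + strand).
PCDHAC1 (chr5:140926049-140926348): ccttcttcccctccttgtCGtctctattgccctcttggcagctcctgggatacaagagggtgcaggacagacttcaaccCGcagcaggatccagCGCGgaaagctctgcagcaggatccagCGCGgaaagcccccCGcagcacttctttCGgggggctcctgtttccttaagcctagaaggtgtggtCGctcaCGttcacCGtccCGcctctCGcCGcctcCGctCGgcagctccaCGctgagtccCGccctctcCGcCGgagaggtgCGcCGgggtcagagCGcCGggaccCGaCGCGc
PCDHGA4 (chr5:141354771-141355070): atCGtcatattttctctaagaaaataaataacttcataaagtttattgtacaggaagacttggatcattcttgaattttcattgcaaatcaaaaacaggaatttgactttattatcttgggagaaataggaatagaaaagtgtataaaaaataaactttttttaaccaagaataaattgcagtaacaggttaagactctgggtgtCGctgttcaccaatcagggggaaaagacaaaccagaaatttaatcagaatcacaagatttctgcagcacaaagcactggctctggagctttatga

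PCDHAC1, with 27 CpG, was the member with 4 lists at its start, KDM2B among them, and PCDHGA4, with 2, had none. The next highest was PCDHGC4 with 23 CpG, which had H2AK119ub but neither KDM2B nor H3K4me3. PCDHGA7, the other member in the promoter table with KDM2B, had 6 CpG, below the member median of 7. The E-box CACGTG, a palindrome that reads alike on both strands, was present in 3 of 47 member promoters (6.38%) and 8.82% of all. Those were PCDHA9, PCDHA10 and PCDHA11, none of which had a MYC peak, while PCDHA5 and PCDHB12, which had one, held no CACGTG in these 300 bases. The short word CCCTC was present on either strand in 12 of 47 (25.5%) and in 76.5% of all promoters. It is not the CTCF binding motif, so these shares do not count CTCF sites. The lower GC content of members was not taken into account.

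**Figure D5:**
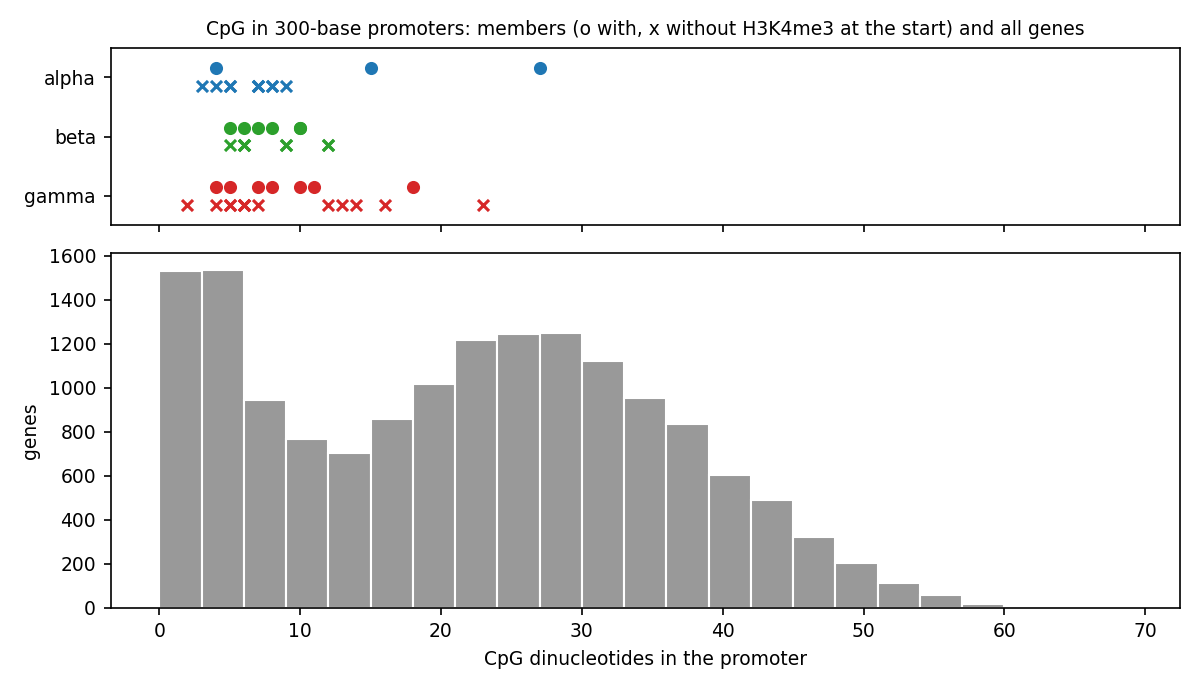
CpG dinucleotides per 300-base promoter (x axis) for members in the table, 1 row per cluster with circles for H3K4me3 at the start and crosses for none, and, as a histogram with the number of genes on the y axis, for all 15812 genes. Members centre on 7, and the points from 15 upward include the 4 C-type members in the table.

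Most neighbouring genes carried active marks at an end. Of 24 other protein-coding records in the gaps or within 250 kb, 21 had H3K4me3 at an end, 20 MYC, 19 H3K27ac and 18 KDM2B, where the shares over all genes, given above, were 69.4%, 64.2%, 63.7% and 46.7%. Several of the 24 share an end or a peak, so they are not separate sites. SLC35A4 and LOC131768270 have the same coordinates, and TMCO6, NDUFA2 and IK the same folds for these 4 targets. TAF7, a subunit of the general transcription factor TFIID that lies between beta and gamma, had folds of 59.8 for H3K4me3, 50.1 for H3K27ac, 11.7 for MYC and 4.31 for KDM2B. H3K27ac covered 0% of alpha, 0% of beta and 1.68% of gamma, against 12.9% and 14.9% of the 250 kb below and above. H3K4me3 covered 3.21% of alpha, 5.21% of beta and 8.15% of gamma, against 33.5% and 15.3% of those flanks and 4.33% of the genome. The Polycomb marks were not limited to the clusters: the 250 kb above gamma had H3K27me3 over 28.1% of bases and H2AK119ub over 21.8%, about the shares of the upper parts of alpha and gamma, and the 250 kb below alpha had 0.917% and 1.14%.

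The non-clustered protocadherins, single genes of the same family, included more strongly marked genes. Of 12 listed, 9 had H3K4me3 at an end, near the share over all genes of 69.4%, 6 H3K27ac, 6 MYC, 5 H2AK119ub, 4 H3K27me3 and 3 KDM2B. H3K4me3 folds were highest at PCDH9 (48.0), PCDH1 (42.7), PCDH7 (34.6) and PCDH17 (26.5), each above every clustered member. KDM2B was present at PCDH1, PCDH7 and PCDH9, with folds of 7.80, 5.84 and 4.73. PCDH15 had no peak of any list. Genes for regulators of the clusters and for their intracellular partners were mostly marked, against shares over all genes of 69.4% for H3K4me3, 63.7% for H3K27ac, 64.2% for MYC and 46.7% for KDM2B by either end: all 14 regulators, CTCF, cohesin subunits and DNA methyltransferases among them, had H3K4me3, H3K27ac and MYC at an end, and 9 had KDM2B. Of 10 genes for partners, the kinase PTK2 and subunits of the WAVE actin-regulating complex among them, all had H3K4me3 and MYC, 9 had H3K27ac and 9 KDM2B.

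As a check of the labelled line, H3K27ac was present at 6 of 6 mesenchymal and basal markers and 4 of 6 luminal markers. The share over all genes by either end was 63.7%. Among the mesenchymal and basal markers it was highest at AXL (fold 104) and EGFR (81.1). The luminal ones were KRT18 (43.2), FOXA1 (32.6), GATA3 (28) and ERBB2 (12.2), with ESR1 in none of the lists and PGR without H3K27ac. Of the epithelial markers, EPCAM had H3K27ac (10.6), H3K4me3 (26.5), MYC (10.5) and KDM2B (5.17), and CDH1 had H2AK119ub alone (3.84). H3K27ac thus lay at markers of both kinds, and its share at luminal markers was near that of all genes. The leukocyte genes PTPRC and CD3E had no H3K27ac. The lists differed in size, with 20018 KDM2B, 49833 MYC, 71597 H3K4me3, 95771 H3K27ac, 234493 H2AK119ub and 306484 H3K27me3 peaks, which sets how often each can appear at any gene. First exons of members resemble each other in sequence, and the sources used here do not give how reads that match several of them were placed. The part of such reads in the counts was not tested.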

How the data were processed

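ChIP-seq peak lists of MDA-MB-231 cells, 1 per target for 6 targets, were used as the authors deposited them. MACS2 2.2.7.1, Bowtie2 2.4.5, Trim Galore and SAMtools 1.6 are the tools named, and hg38 the build, per the submitters' processing notes. The control of each list and any pooling of libraries are not given in the sources used here. For each peak the deposited lists give a score, a fold (a ratio to background, taken at the summit), a −log10 q-value and the summit. The lists hold no counts, so the depth is unknown. ATF4 and input libraries are not analysed here, and protein sequences were not used here.

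Gene records and promoters came from RefSeq (GRCh38.p14), whose gene table gives no strand. A target counted where at least 1 bp of a peak lay within 1 kb of a record end, or in a 10 kb bin. Shares have 95% Wilson intervals, which cover counting error only. No test was possible with 1 list per target. Overlap counting was tested on simulated data. Python 3.11.15, pandas 2.3.3 and scipy 1.17.1 were used.

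Members and gene lists were chosen with earlier results of these data known. The naming rule took the C-type members, up to 6 members per cluster and target with a peak of KDM2B, MYC, H3K4me3 or H3K27ac at the start (by fold), up to 3 highest and lowest for each Polycomb mark, all members of counts of 5 or fewer, and up to 4 genes of other lists. Any other name was picked with its values in view. The alternatives tried were whole records, windows of 500 and 2500 bp, bins of 5 and 20 kb or shifted by 5 kb, q under 1e-5, the 15000 peaks of highest fold, summits, 50% overlap, peaks merged across 3 kb and, added after seeing the data, starts of the promoter table.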

Additional observations from a re-analysis of the deposited data

How the results depend on the processing

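No paired analysis was possible because each target had 1 list, which does not resolve the libraries, and no result came from a test. Of 246 alternatives, 93 moved the value: 32 of 84 for counts of members and 31 of 54 for covered bases, by over 1.5 times, and 30 of 108 for bins, to outside the Wilson interval. That interval is wide, so some bin shares inside it still changed much: KDM2B in gamma was 30.0% in 20 kb bins and 10.5% as reported, and H3K27me3 in gamma 42.1% with bins shifted by 5 kb and 26.3% as reported. For H2AK119ub the order of alpha and gamma turned with shifted bins (47.8% and 36.8%) and with 20 kb bins. The causes were not tested beyond how each alternative was built. H3K27ac stayed absent at starts in every alternative. Only windows of 2500 bp and the promoter-table starts could have changed this, since the other settings at starts can only remove peaks. Whole records with 1 kb around gave 22 members with H3K27ac, all gamma records that hold the constant site. Counts by whole record were 37 for KDM2B, 29 for MYC, 45 for H3K4me3, 40 for H2AK119ub and 39 for H3K27me3, since shared exons count for each member.

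Among members counted by either end, windows of 500 bp gave 1 with KDM2B, and 2500 bp gave 4 with MYC and 45 with H3K4me3. The rise to 45 came from the shared alpha and gamma ends. At 2500 bp each reached an H3K4me3 peak, which then counted for every record of its cluster. With q under 1e-5, KDM2B and MYC gave 0 and H2AK119ub 1. The 15000 peaks of highest fold left 1 with KDM2B and 0 with MYC, H3K4me3, H2AK119ub or H3K27me3. This limit was not equally strict across targets, since it kept 15000 of 20018 KDM2B peaks but 15000 of 306484 H3K27me3 peaks. It was a fold of 2.68 for KDM2B, 5.77 for MYC, 13.5 for H3K4me3, 3.44 for H2AK119ub and 4.53 for H3K27me3. At starts, 500 bp gave 1 with KDM2B and 3 with H2AK119ub, and 2500 bp gave 4 with MYC, 16 with H2AK119ub and 12 with H3K27me3. With 2500 bp, H3K4me3 at starts was 21 against 19 as reported. There, q under 1e-5 gave 0 with KDM2B, 0 with MYC, 1 with H2AK119ub and 3 with H3K27me3, summits gave 3 with H2AK119ub, and the 15000 strongest left 1 with KDM2B and 0 with MYC, H3K4me3, H2AK119ub or H3K27me3.

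Of bins, q under 1e-5 left 0% for KDM2B and MYC in every cluster, 4.17%, 0% and 5.26% for H2AK119ub and 41.7%, 5.0% and 10.5% for H3K27me3 in alpha, beta and gamma, with H3K27me3 highest in alpha. Bins of 20 kb gave 66.7% for H2AK119ub in alpha, against 60% in gamma, and, for H3K27me3, 91.7% in alpha and 60% in gamma. The 15000 strongest peaks left 0% for each moved target except 10.5% for H3K4me3 in gamma. Of bases, merging peaks less than 3 kb apart gave, for H3K27me3, 25.8% in alpha, 0.93% in beta and 2.89% in gamma and, for H2AK119ub, 15.1% in gamma. With q under 1e-5, KDM2B and MYC covered 0% of each cluster, H2AK119ub 0.116%, 0% and 0.273% and H3K27me3 5.64%, 0.196% and 0.752% of alpha, beta and gamma. The 15000 strongest peaks left 0% for each moved target except 1.9% for H3K4me3 in gamma. H3K4me3 at 13 of 19 starts passed q under 1e-5.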
